A study of Homo sapiens with 6 samples.

Results

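The vacuolar ATPase (V-ATPase) subunit genes examined here were 10 genes chosen by symbol, ATP6V0A1, ATP6V0B, ATP6V0C, ATP6V0D1 and ATP6V0E1 of the V0 sector and ATP6V1A, ATP6V1C1, ATP6V1D, ATP6V1E1 and ATP6V1H of the V1 sector. They were measured in HCT116 cells, a human colorectal carcinoma line, given 0.1% (v/v) dimethyl sulfoxide (vehicle) or 40 µM NU7441, which blocks DNA-dependent protein kinase, each for 48 h and with 3 samples per group. The labels do not state the solvent content of the NU7441 cultures, nor whether samples of 1 group came from separate cultures, so p-values measure a spread that may be technical. The study asked which transcripts of 1 cell line differ at 1 dose and 1 time. In RNA from whole cultures, a change in the number of some cells and a change in RNA per cell cannot be told apart.

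Of the 10 genes, 9 had a named probe on the Illumina bead arrays, with 14 probes in all, among 47323 probes on the array. ATP6V0C had no probe under its name and was not analysed here. Probes with a detection p under 0.05 on every vehicle array or on every NU7441 array were kept, which left 12 of the 14 probes and all 9 genes. All 12 were detected on all 6 arrays, so none passed through 1 group alone. The dimmer probe of ATP6V1C1 was detected on 1 vehicle array and 2 NU7441 arrays, and that of ATP6V1H on 1 array of each group, and both were left out.

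The V-ATPase is a rotary proton pump. Its V1 sector hydrolyses ATP on the cytosolic side, and its membrane-embedded V0 sector carries protons into lysosomes, endosomes, the Golgi and secretory vesicles. The sectors can separate and reassemble, which switches the pump off and on. On the lysosome the pump also takes part in amino acid signalling to mTORC1, and many of its genes are known targets of the transcription factor TFEB, which binds a motif called CLEAR with an E-box at its core.

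Promoter sequences are shown because such motifs are known for this gene family. RefSeq promoter windows of 300 bases (GRCh38.p14), each from 250 bases before to 50 bases after an annotated start, were available for 6 of the 10 genes. They were searched on both strands for the E-box CACGTG and for TCACGTG, the CLEAR core, every match of which holds an E-box. Below are the last 100 bases before the start for the 5 of these genes that were also measured, with matches in capitals.
ATP6V0A1, chr17:42458778-42458877, plus strand: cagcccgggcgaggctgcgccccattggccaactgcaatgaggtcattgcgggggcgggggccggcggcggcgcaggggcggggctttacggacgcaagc
ATP6V0B, chr1:43974860-43974959, plus strand: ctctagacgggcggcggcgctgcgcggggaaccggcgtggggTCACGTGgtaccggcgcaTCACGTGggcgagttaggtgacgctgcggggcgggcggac
ATP6V0D1, chr16:67481158-67481257, minus strand: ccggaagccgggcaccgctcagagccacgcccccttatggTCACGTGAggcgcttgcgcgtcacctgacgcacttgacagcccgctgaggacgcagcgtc
ATP6V1D, chr14:67359805-67359904, minus strand: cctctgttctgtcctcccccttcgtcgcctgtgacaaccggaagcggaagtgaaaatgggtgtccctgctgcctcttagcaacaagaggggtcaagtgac
ATP6V1E1, chr22:17628823-17628922, minus strand: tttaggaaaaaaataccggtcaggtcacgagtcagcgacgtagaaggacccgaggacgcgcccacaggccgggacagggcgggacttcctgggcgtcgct

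ATP6V0B held 2 E-boxes, 57 and 39 bases before its start, and ATP6V0D1 held 1, 59 bases before its start. In ATP6V0D1 the E-box matched TCACGTG on both strands. The windows of ATP6V0A1, ATP6V0C, ATP6V1D and ATP6V1E1 did not contain these letters. Among 35116 promoter windows of the same length, 7.26% held CACGTG and 3.71% held TCACGTG. By gene, 2 of the 6 members with a window held each, where 8.77% and 4.49% of 27305 genes did. Of 12 other V-ATPase subunit genes with a window, 2 held each. A match of these letters is a description of the sequence and does not show that a factor binds there.

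NU7441 raised 3 of the 9 measured V-ATPase genes, ATP6V0A1, ATP6V0E1 and ATP6V1D, and lowered 0. Of all 9342 genes, 36.6% were called, 17.7% higher and 18.9% lower, so the 33.3% of members called higher is to be read against 17.7%. The excess was not seen under 2 of the settings. With arrays scaled to their 75th percentile 11.1% of members (1 of 9) were higher against 12.5% of all genes, and at an adjusted p below 0.01 it was 11.1% against 10.1%. By probe, 4 of the 12 were called higher, against 16.7% of all kept probes, of which 34.2% were called in either direction and 17.5% lower. The test was limma's moderated test per probe with Benjamini-Hochberg adjustment over all 14973 kept probes and a threshold of 0.05, and each gene is represented by its brightest kept probe. At an unadjusted p under 0.05, 6 members were higher and 0 lower by limma, where 23.1% of all genes were higher and 23.9% lower. After normalization, the NU7441 arrays lay above all vehicle arrays in 6 of the 9 genes, a pattern found in 24.2% of all genes, while 49.9% did not overlap in either direction. In the deposited signals, which are not normalized between arrays, 1 of the 9, ATP6V0A1, separated in this way, or 11.1%, equal to the 11.1% of all genes. The median log2 fold change of the 9 was 0.30, and that of all genes was 0.0022. All fold changes below are NU7441 over vehicle on the log2 scale with the standard error (SE) of the fit, n = 3 arrays per group.

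**Figure D1:**
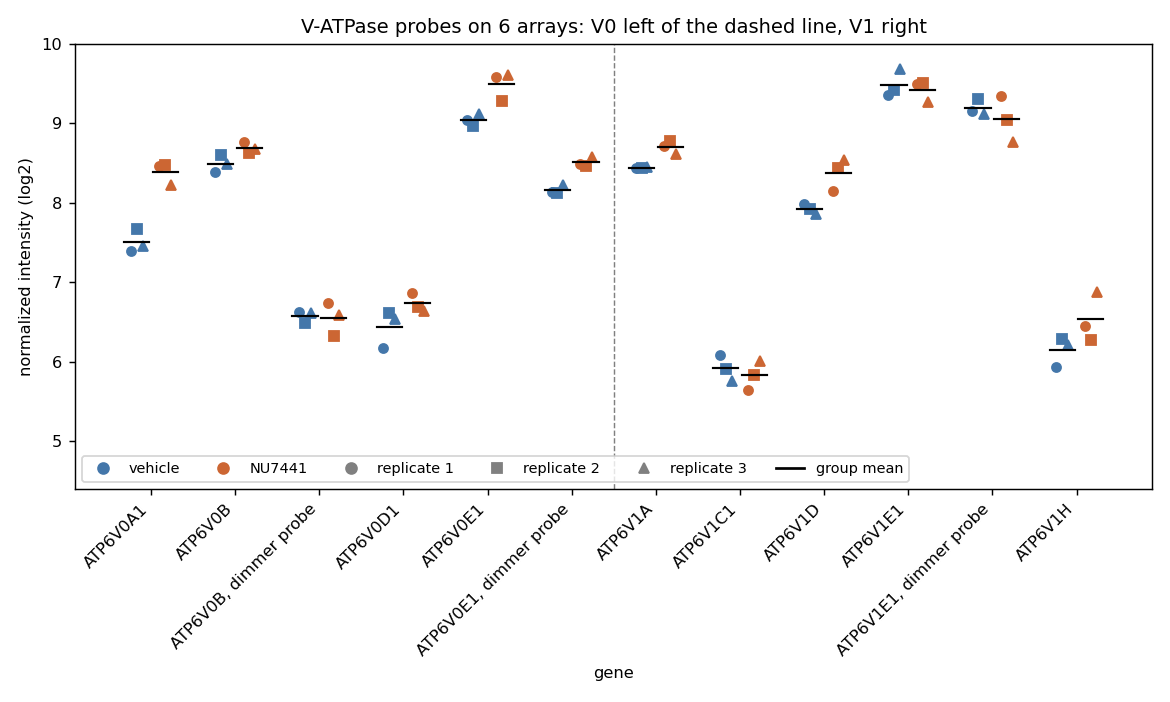
Normalized log2 intensity of the 12 kept V-ATPase probes on each of the 6 arrays, with vehicle in blue, NU7441 in orange, marker shape for the replicate and black bars for the group means. The separation of the groups is widest for ATP6V0A1, whose vehicle arrays lie between 7.39 and 7.67 and whose NU7441 arrays lie between 8.23 and 8.47.

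In the V0 sector the subunit genes differed in size of change. ATP6V0A1 encodes the a1 isoform of the large a subunit, through which protons pass beside the rotating ring. Its normalized log2 intensity was 7.39, 7.67 and 7.46 on the vehicle arrays and 8.46, 8.47 and 8.23 on the NU7441 arrays. The 3 NU7441 arrays were all higher and the groups did not overlap. The log2 fold change was 0.88 ± 0.12 (SE, adjusted p = 0.000105), a 1.84-fold rise with a 95% interval of 1.54 to 2.21. The deposited signals before correction were 242.3, 256.5 and 250.5 for vehicle and 346, 374 and 371.7 for NU7441, so the separation was also present there. This probe ranked 543 of 14973 by absolute size of change. It was the single member that stayed past the threshold under all 18 alternatives tried, with changes from 0.72 to 0.97.

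ATP6V0E1 encodes the small hydrophobic e subunit, and both of its probes were called. The brighter probe read 9.04, 8.97 and 9.12 in vehicle and 9.58, 9.28 and 9.61 in NU7441. After normalization every NU7441 array exceeded every vehicle array, with replicate 2 the lowest of its group. The deposited signals overlapped, at 642, 551 and 672.5 for vehicle and 691.8, 626.8 and 909.1 for NU7441. The log2 fold change was 0.45 ± 0.12 (SE, adjusted p = 0.0105). The dimmer probe read 8.14, 8.12 and 8.23 against 8.49, 8.47 and 8.57, again without overlap though its deposited signals overlapped, and changed by 0.35 ± 0.11 (SE, adjusted p = 0.0226). With arrays scaled to their 75th percentile, neither probe was past the threshold, at 0.31 (adjusted p = 0.0945) and 0.16 (adjusted p = 0.325). The dimmer probe also missed it without vehicle replicate 1 (adjusted p = 0.068) and without vehicle replicate 2 (adjusted p = 0.0784).

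ATP6V0D1 encodes subunit d, which couples the V1 shaft to the V0 ring. It read 6.17, 6.61 and 6.53 in vehicle and 6.87, 6.69 and 6.64 in NU7441. The groups did not overlap, though vehicle replicate 2 and NU7441 replicate 3 lay close together. Its change of 0.30 ± 0.13 (SE) did not pass (adjusted p = 0.0963), with a 95% interval of 0.014 to 0.58. Without vehicle replicate 1 it was 0.16 (adjusted p = 0.381). The deposited signals overlapped, with NU7441 replicate 2 at 151.4 and vehicle replicate 3 at 156.6.

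ATP6V0B encodes c'', a proteolipid of the rotating ring. Its brighter probe read 8.38, 8.60 and 8.49 in vehicle and 8.77, 8.63 and 8.67 in NU7441, a difference of 0.20 ± 0.11 (SE, adjusted p = 0.192). The NU7441 arrays were higher by a margin smaller than the spread of the vehicle arrays. Its dimmer probe gave -0.021 ± 0.13 (SE, adjusted p = 0.914) with overlapping groups, so the 2 probes of this gene had opposite signs and neither was called. The deposited signals of the brighter probe were 430.9, 443 and 454.3 for vehicle and 411.8, 410.2 and 484.2 for NU7441, which overlap, and the normalized difference was 0.016 with 75th percentile scaling.

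In the V1 sector ATP6V1D was the gene that rose. It encodes subunit D of the central shaft, which turns with the V0 ring. Its normalized log2 intensity was 7.99, 7.92 and 7.86 in vehicle and 8.15, 8.44 and 8.54 in NU7441. After normalization all 3 NU7441 arrays were higher, and replicate 1 was the nearest to the vehicle arrays. In the deposited signals NU7441 replicate 1, at 288, lay below all 3 vehicle arrays, at 342.5, 295.8 and 313.1, while NU7441 replicates 2 and 3 were above them at 367.9 and 445.9. The log2 fold change was 0.45 ± 0.12 (SE, adjusted p = 0.0116), or 1.37-fold with a 95% interval of 1.14 to 1.64. It missed the threshold without vehicle replicate 3 (adjusted p = 0.0512) and with 75th percentile scaling, where it was 0.28 (adjusted p = 0.149).

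ATP6V1A encodes the catalytic subunit A, which binds and hydrolyses ATP. Its vehicle arrays read 8.44, 8.44 and 8.45 and its NU7441 arrays 8.72, 8.78 and 8.62. The normalized groups did not overlap, and the vehicle arrays were nearly equal, with an SD of 0.0034 against 0.084 for NU7441. The deposited signals overlapped, with NU7441 replicate 1 at 400.8 and vehicle replicate 2 at 402.3. The change of 0.26 ± 0.11 (SE) did not pass (adjusted p = 0.0754). It passed in 8 of the 18 alternatives, among them the submitters' log2 table (adjusted p = 0.00955) and the fit without NU7441 replicate 3 (adjusted p = 0.0474), while with 75th percentile scaling it was 0.083.

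ATP6V1H encodes subunit H, which keeps detached V1 from hydrolysing ATP. It read 5.94, 6.29 and 6.21 in vehicle and 6.45, 6.27 and 6.88 in NU7441. NU7441 replicate 3 stood highest and replicate 2 lay within the vehicle range. The difference was 0.39 ± 0.15 (SE, adjusted p = 0.0629), and its size varied with the array left out. It passed without NU7441 replicate 2, at 0.52 (adjusted p = 0.0289), and was 0.22 (adjusted p = 0.221) without NU7441 replicate 3.

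The other V1 members gave differences close to 0. ATP6V1C1 encodes subunit C, which sits where the sectors join and comes off when they part. It read 6.08, 5.91 and 5.76 in vehicle and 5.65, 5.83 and 6.01 in NU7441, with full overlap and a difference of -0.087 ± 0.13 (SE, adjusted p = 0.628). ATP6V1E1 encodes subunit E of the peripheral stalks. Its brighter probe read 9.35, 9.42 and 9.68 against 9.50, 9.51 and 9.26, a difference of -0.062 ± 0.13 (SE, adjusted p = 0.73). Its second probe was at -0.14 ± 0.14 (SE, adjusted p = 0.453). The groups overlapped for both probes, and the 95% intervals ran from -0.36 to 0.19 for ATP6V1C1 and from -0.33 to 0.21 for the brighter probe of ATP6V1E1. The design therefore leaves room for changes of that size.

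Between the sectors, 2 of 4 measured V0 genes and 1 of 5 V1 genes were called higher, or 50% and 20% against 17.7% of all genes, so the V1 share was near that background. The median log2 fold change was 0.37 for V0 and 0.26 for V1. As deviations from the vehicle mean, the V0 median was 0.48, 0.25 and 0.39 on NU7441 replicates 1, 2 and 3, and -0.11, 0.14 and 0.035 on the vehicle arrays. The V1 median was 0.22, 0.12 and 0.17 on the NU7441 arrays and within 0.0038 of 0 on the vehicle arrays. Deviations are centred on the vehicle arrays, so medians near 0 there do not measure the spread of the genes. Single V1 genes ran there from -0.21 (ATP6V1H, vehicle replicate 1) to 0.20 (ATP6V1E1, brighter probe, vehicle replicate 3). In each sector the NU7441 arrays lay above the vehicle arrays. On each NU7441 array the V0 median was above the V1 median, but the sectors hold few genes and the difference was not tested. With 75th percentile scaling the medians were 0.25 and 0.083. That scaling gave a median change of -0.056 over all genes, and 36.5% of the called probes were then higher in place of 48.9%.

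**Figure D2:**
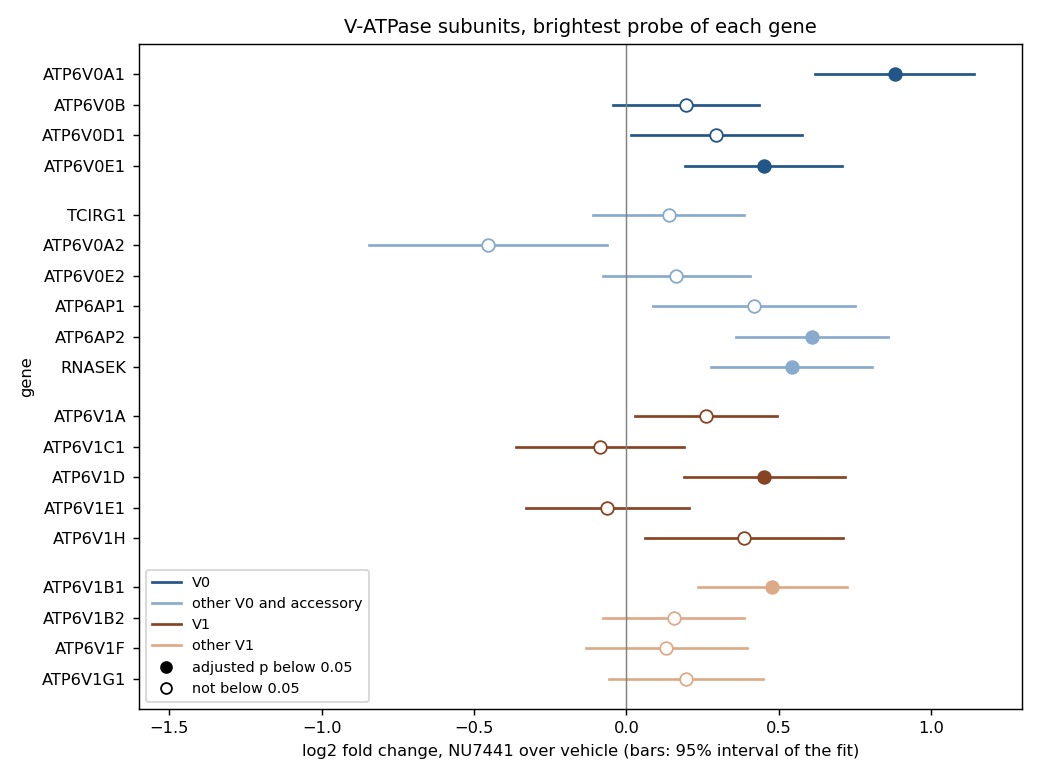
Change on the log2 scale, NU7441 over vehicle, with its 95% interval for the 9 members and 10 other measured subunit genes, brightest probe of each, by sector. Filled points passed an adjusted p of 0.05, and 6 of the 19 genes did, all with positive changes, where 17.7% of all genes were higher. ATP6V1B1, among them, passed the detection filter through the NU7441 arrays alone.

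The other subunit genes were taken whole from a list of 16. Of 10 measured, 3 were higher and 0 lower by limma, with a median of 0.18. The share higher was 30% against 17.7% of all genes. At an unadjusted p under 0.05 by limma, 4 were higher and 1 lower, where 23.1% of all genes were higher and 23.9% lower. Of the 9 detected on all 6 arrays at a detection p under 0.05, 2 were higher in the main fit. A separate fit asked for a detection p below 0.01 on all 6 arrays. There 3 other V0 and accessory genes and 0 other V1 genes were higher, where 19.7% of all genes were. ATP6AP1 passed in that fit (adjusted p = 0.0405 by limma). ATP6AP2, the prorenin receptor and an accessory subunit of V0, read 8.70, 8.66 and 8.74 in vehicle and 9.44, 9.36 and 9.13 in NU7441. Its groups were well apart, and it rose by 0.61 ± 0.12 (SE, adjusted p = 0.00122). RNASEK, a small membrane protein found in V0, rose by 0.54 ± 0.12 (SE, adjusted p = 0.00393), with a second probe at 0.31 (adjusted p = 0.0446). With 75th percentile scaling the adjusted p of the brighter RNASEK probe was 0.0559. ATP6V1B1, the B subunit isoform known from kidney intercalated cells, rose by 0.48 ± 0.11 (SE, adjusted p = 0.00532). Its signal was near background, detected on 2 of 3 vehicle arrays, so it passed the detection filter through the NU7441 arrays alone and had to be high there.

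ATP6AP1, the accessory subunit Ac45, read 8.71, 8.42 and 8.75 in vehicle and 9.35, 9.10 and 8.69 in NU7441, so that replicate 3 lay among the vehicle arrays. Its difference of 0.42 ± 0.16 (SE) was just short of the threshold (adjusted p = 0.0501), and its size varied with single arrays. It was 0.59 (adjusted p = 0.0046) without NU7441 replicate 3 and 0.27 (adjusted p = 0.193) without NU7441 replicate 1. Without vehicle replicate 2 it was 0.32 (adjusted p = 0.197), and with 75th percentile scaling 0.25 (adjusted p = 0.212). ATP6AP1 passed in 8 of the 18 alternatives. Among the isoforms of the a subunit, the a2 gene ATP6V0A2 was at -0.45 ± 0.18 (SE, adjusted p = 0.0686), and the a3 gene TCIRG1 at 0.14 ± 0.12 (SE, adjusted p = 0.371). ATP6V0A2 read 5.34, 5.90 and 5.87 in vehicle and 5.65, 4.90 and 5.21 in NU7441, and these overlapped. It was past the threshold without vehicle replicate 1, at -0.63 (adjusted p = 0.0242), and without NU7441 replicate 1, at -0.66 (adjusted p = 0.00899). It was -0.28 (adjusted p = 0.281) without NU7441 replicate 2 and -0.35 (adjusted p = 0.233) without vehicle replicate 2. Whether the a isoforms differ in their response was not tested. ATP6V0E2, ATP6V1B2, ATP6V1F and ATP6V1G1 were at 0.16, 0.15, 0.13 and 0.20 and did not pass. ATP6V1B2, the widely expressed B isoform, read 7.89, 7.88 and 7.87 against 8.05, 8.11 and 7.95, without overlap. ATP6V0D2, ATP6V1C2, ATP6V1G2 and ATP6V1G3 had probes that did not pass the detection filter, and ATP6V0A4 and ATP6V1E2 were not analysed here.

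Of the genes that assemble or regulate the pump, 8 were measured from a list of 11, with 3 higher and 2 lower. That is 37.5% higher against 17.7% of all genes, and 25% lower against 18.9%. Of the 7 detected on all 6 arrays, 2 were higher and 2 lower. VMA22 and VMA12 encode partners in pump assembly in the endoplasmic reticulum, and VMA21 is a further assembly chaperone there. VMA22 read 6.08, 6.09 and 6.04 in vehicle and 6.67, 6.39 and 6.69 in NU7441, a rise of 0.51 ± 0.12 (SE, adjusted p = 0.00411) with well separated groups. VMA12 read 6.03, 5.91 and 5.81 against 5.62, 5.37 and 5.71, a change of -0.35 ± 0.12 (SE, adjusted p = 0.0372). VMA21 read 7.86, 7.87 and 8.27 against 7.72, 7.68 and 7.53, a change of -0.36 ± 0.13 (SE, adjusted p = 0.0468). Both falls were without overlap, but neither was firm. VMA21 missed the threshold with any 1 array left out, at adjusted p from 0.0505 to 0.229 (-0.22 without vehicle replicate 3), and VMA12 did so without any 1 vehicle array (adjusted p from 0.0527 to 0.142) and without NU7441 replicate 2 (adjusted p = 0.153).

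NCOA7, a TLDc-domain protein that binds the pump, rose by 0.44 ± 0.11 (SE, adjusted p = 0.00822), and by 0.37 (adjusted p = 0.0512) without vehicle replicate 3. ROGDI, a partner of the rabconnectin-3 proteins that help V1 rejoin V0, rose by 0.40 ± 0.14 (SE, adjusted p = 0.0321). ROGDI was detected on 0 vehicle arrays and 3 NU7441 arrays, so the filter admitted it only because it was high there. Its adjusted p was 0.071, 0.118 and 0.0626 without vehicle replicate 1, 2 and 3 and 0.149 without NU7441 replicate 2, where the change was 0.26. The count of higher genes in this list was 1 without vehicle replicate 3. The rabconnectin-3 genes DMXL2 and WDR7 were at 0.24 and 0.37, and OXR1, also with a TLDc domain, at 0.030, none of them called. DMXL2 passed without NU7441 replicate 3, at 0.36 (adjusted p = 0.0393), and with array weights (adjusted p = 0.0347), and was 0.11 without NU7441 replicate 2. WDR7 ranged from 0.23 without vehicle replicate 2 to 0.61 (adjusted p = 0.0163) without NU7441 replicate 2, and it passed with the replicate number as a block (adjusted p = 0.0398). DMXL1, TLDC2 and MEAK7 were not kept. Of the MiT/TFE factors MITF, TFEB, TFE3 and TFEC, none passed the detection filter, so their levels could not be compared on these arrays.

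**Figure D3:**
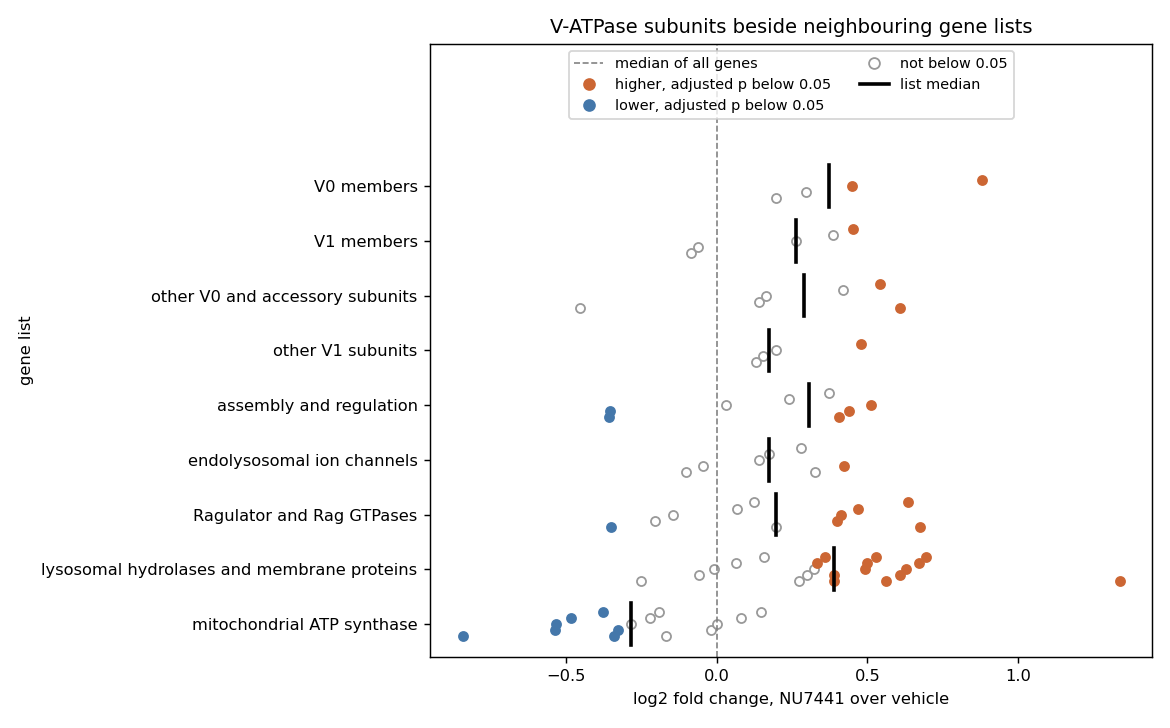
Log2 fold change of NU7441 over vehicle for each measured gene of 9 lists, brightest probe of each gene, with the list median as a black bar and the median of all genes as a dashed line. The V0 and V1 medians of 0.37 and 0.26 lie to the right of 0, as do those of the lysosomal lists, and the median of the mitochondrial ATP synthase list lies at -0.28.

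Lysosomal genes beside the pump were taken as a further list. Of 21 measured lysosomal hydrolases and membrane proteins, 13 were higher and 0 lower by limma (15 and 0 at an unadjusted p under 0.05), with a median of 0.39. The share higher was 61.9% against 17.7% of all genes, or 23.1% unadjusted. NEU1, a sialidase, rose by 1.34, the protease CTSB by 0.69 and the cholesterol transporter NPC1 by 0.67, with adjusted p of 2.7e-06, 0.00079 and 0.000658. The count of higher genes was 8 without vehicle replicate 3. A list of Ragulator and Rag GTPase genes, which dock mTORC1 at the lysosome, also held the amino acid transporter SLC38A9 and the regulators FLCN, FNIP1 and FNIP2. Of its 11 measured genes 5 were higher, 45.5% against 17.7% of all genes, and 1 lower, 9.09% against 18.9%, with a median of 0.20. RRAGB, RRAGA and RRAGC rose by 0.68, 0.63 and 0.47, and LAMTOR3 and SLC38A9 were the other higher genes, at 0.40 and 0.41. The lower gene, LAMTOR4, at -0.35, was not called without any 1 of the vehicle arrays or without NU7441 replicate 2 or 3, where the list's count was 0. Of 7 endolysosomal ion channels and exchangers, 1 was higher (14.3%, below the 17.7% of all genes), TMEM175, a lysosomal potassium and proton channel, at 0.42 (adjusted p = 0.017). In that list 0 genes were called when vehicle replicate 1 was left out, and 2 when either vehicle replicate 3 or NU7441 replicate 3 was.

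The mitochondrial ATP synthase is a related rotary enzyme that runs the other way, making ATP from a proton gradient. Of its 15 measured genes 0 were higher and 7 lower by limma (0 and 8 at an unadjusted p under 0.05), with a median of -0.28. The share lower was 46.7% against 18.9% of all genes, or 23.9% unadjusted. The ring genes ATP5MC1 and ATP5MC3 fell by 0.84 and 0.54 and ATP5MF by 0.53 on the log2 scale. Leaving out vehicle replicate 1, vehicle replicate 3 or NU7441 replicate 2 gave 4 lower genes. The difference between the lists was not tested.

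The genes whose pattern over the 6 arrays was most like that of ATP6V0A1 were sought as those with the smallest root mean square difference in deviation from the vehicle mean. They were RBCK1, ULK1, KLHDC2, SCARNA13 and TOM1, at 0.0739 to 0.0978 on the log2 scale. RBCK1 rose by 0.90, ULK1 by 0.93, KLHDC2 by 0.77, SCARNA13 by 0.95 and TOM1 by 0.78. As in ATP6V0A1, NU7441 replicate 3 was the lowest array of its group in all 5 genes. The choice, made over these same arrays, favours such a shared pattern and rises of similar size. These 5 are the closest of 9342 genes less the members, over only 6 arrays, which makes the order among them a description.

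**Figure D4:**
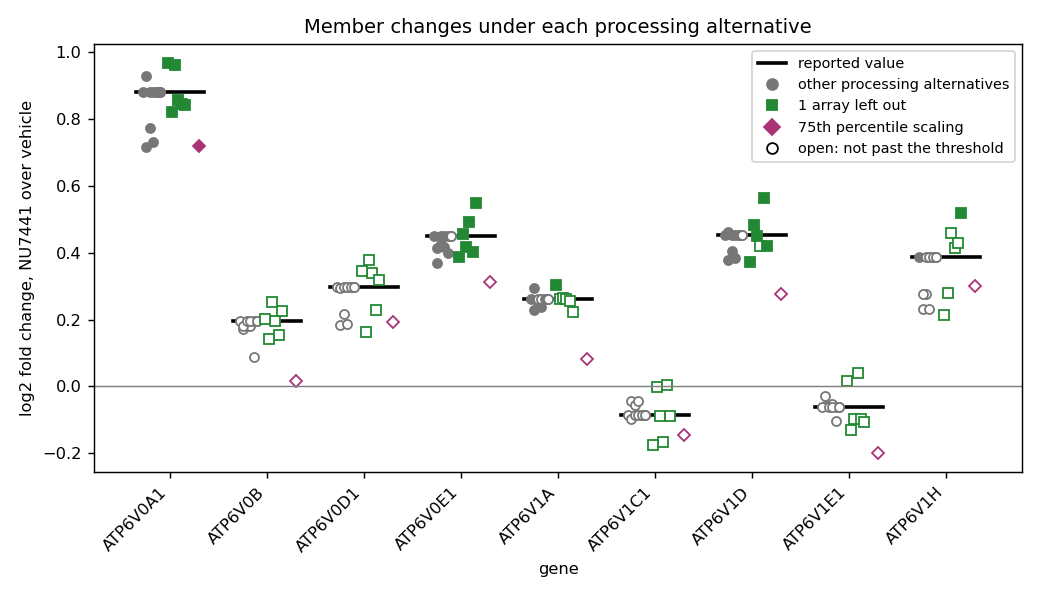
Log2 fold change of NU7441 over vehicle for the 9 member genes under each of 18 processing alternatives, with the reported value as a black bar and filled points where the threshold was passed. ATP6V0A1 stays filled throughout, and 75th percentile scaling, in purple, leaves it the single member past the threshold.

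The arrays were alike in the number of probes detected and in median signal. Between 16593 and 17788 probes, or 35.1% to 37.6%, were detected per array, and the median signal lay between 72.8 and 75.3. Most probes were not detected, so this median is a background level. It does not show whether the brighter signals were alike between arrays. Precision is limited by having 3 arrays per group. The epithelial markers EPCAM, CDH1, KRT8, KRT18 and KRT19 were detected on all 6 arrays, and 1 of the 5, CDH1, was called, with a rise of 0.52. Of 9 fibroblast, leukocyte and endothelial markers with a probe, 0 were detected on all 6 arrays and 6 on no array. COL1A1 was detected on 5 arrays, among them all 3 vehicle arrays, at signals of 74.9 to 86. LUM and CD14 were detected on 1 array each.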

How the data were processed

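Total RNA was extracted by kit and amplified to biotinylated cRNA, per the labels' protocols. GenomeStudio, R 3.0.2 and lumi are named in the submitters' processing notes, without order or settings. Per the file headers, the signals that the authors deposited are non-normalized intensity on a linear scale, and each has its detection p-value. The header letters V and T were read as vehicle and treated, and the deposited log2 columns, which carry sample identifiers, bear this out. A second deposited table, on the log2 scale, matched the quantile normalized log2 signals within 0.0612, has a median of 6.22 on each array and is not centred; it served as an alternative and holds 47322 of the 47323 probes.

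Intensities were background corrected by normexp with limma 3.58.1 in R 4.3.3 (offset 16, negative controls estimated through the detection p-values), then quantile normalized and log2 transformed. The offset shrinks changes of dim probes, but with no background correction some changes of dim genes were smaller still. Without it ROGDI was at 0.138 (adjusted p = 0.107 by limma) in place of 0.404. NCOA7 was then at 0.235 in place of 0.44, and VMA22 at 0.302 in place of 0.511. Gene symbols came from the platform's annotation in GEO, in which 30112 had 1 symbol, 8 several and 17203 none. No genome build was used for the arrays. The 14973 kept probes were fitted with lmFit and eBayes on group alone, with Benjamini-Hochberg adjustment over all of them. The fit was tested on simulated data with known changes in 200 of 14973 probes. It recovered 1.4% of log2 changes of 0.3, 28.6% of those of 0.5 and 88.2% of those of 1. Of its calls 3.2% were false. In the arrays themselves 5120 probes were called, far more than were changed in the simulation, so these shares do not carry over directly.

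The members and lists were chosen with earlier results of these data known. Named are all members with every kept probe, all measured genes of the subunit, assembly and MiT/TFE lists, up to 3 called genes with the largest change of each further list, and the 5 genes most like the member with the largest change; LAMTOR3, LAMTOR4 and SLC38A9 were named after their values were seen. The alternatives tried concern the background, the scaling, the submitters' values, the detection filter, the variance model, array weights, a replicate block, single arrays left out, 1 row per gene and a threshold of 0.01. No slide is given, so no slide block was fitted. Plots were made in matplotlib 3.10.9 under Python 3.11.15.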

Additional observations from a re-analysis of the deposited data

How the results depend on the processing

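ATP6V0A1 kept its direction and its call in all 18 alternatives, and no member gene was called lower in any. The count of members called higher was 1 with 75th percentile scaling, 5 with a trended and robust variance, 1 at a threshold of 0.01 and 2 to 4 with 1 array left out, and that of member probes was 1 with the scaling and 1 at 0.01. The V1 median was 0.0831 with 75th percentile scaling and 0.215 to 0.264 with 1 array left out, and the V0 median stayed between 0.252 and 0.434. With 75th percentile scaling, 1 gene of the other V0 and accessory list was higher and 1 lower, and 1 lysosomal gene was lower. With array weights, 1 other V0 or accessory gene was lower, 1 lysosomal gene was lower and 2 ion channel genes were higher. Asking for detection below 0.01 on all 6 arrays left 0 other V1 genes higher by limma, since ATP6V1B1 was then not tested. The assembly list held 1 lower gene without background correction, 1 in the submitters' table, and 0 with no detection filter or at 0.01. With no detection filter 0 ion channel genes were higher and 0 Ragulator and Rag genes lower, and the mean of a gene's probes gave 2 higher ion channel genes. At 0.01 the counts were 0 ion channel genes higher, 0 Ragulator and Rag genes lower, 8 lysosomal genes higher and 4 ATP synthase genes lower. The cause of these shifts was not tested, beyond the stricter threshold itself.

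With 1 array left out, the lower count was 0 to 1 for the other V0 and accessory list, 0 to 1 for assembly, 0 to 1 for Ragulator and Rag genes, 0 to 1 for lysosomal genes and 4 to 7 for ATP synthase. The higher count was 1 to 4 for assembly, 0 to 2 for ion channels and 8 to 13 for lysosomal genes. Values of uncalled genes near 0 changed sign. With 1 array left out, ATP6V1C1 ran from -0.176 to 0.00328 (without NU7441 replicate 1), the second ATP6V1E1 probe from -0.286 to 0.0012 (without NU7441 replicate 3), and the brighter one from -0.131 to 0.0412 (without vehicle replicate 3), with 0.017 without NU7441 replicate 3. The dimmer ATP6V0B probe ran from -0.116 to 0.092 (without NU7441 replicate 2), with 0.00588 without vehicle replicate 1. OXR1 ran from -0.0711 (without vehicle replicate 2) to 0.118, with -0.0304 without NU7441 replicate 2, and was at -0.0919 with 75th percentile scaling. With that scaling ATP6V0E2, ATP6V1B2 and ATP6V1F were at -0.0158, -0.0152 and -0.0146.

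Arrays with the same replicate number did not deviate together (correlations of -0.113, 0.046 and -0.0661), and 1 of 6 arrays correlated best with its own number. With the replicate number as a block, 4859 probes were called in place of 5120, 3 members were higher, and the assembly list held 1 lower gene. Signal near background limits ATP6V1B1, ROGDI and the 4 MiT/TFE genes. Other genes detected on all 6 arrays were also dim, beside array medians of 72.8 to 75.3. Among those called, for instance, RRAGC read 85.5 to 103.3, SLC38A9 86.1 to 101.6, ATP5MC3 86.6 to 118.6 and RRAGB 96.2 to 128.6 in the deposited signals. Among those not called, TCIRG1 read 84.8 to 95.8, DMXL2 78.7 to 88.2, WDR7 78.2 to 103.8 and ATP6V0A2 84.6 to 118.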
